A study of Mus musculus with 12 samples.

Results

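The deletion of Runx1 in granulocyte-monocyte progenitors (GMP) taken directly from mouse bone marrow was examined on 8 of the 12 arrays of the series. The arrays were chosen by their titles, which name a Runx1 genotype and no retroviral construct. Wild-type GMP (wt, 4 arrays) came from Runx1+/+-Tg(vav-Cre) mice, and Runx1-deleted GMP (ko, 4 arrays) from Runx1fl/fl-Tg(vav-Cre) mice, which the titles write as Runx1Δ/Δ. Both genotypes carry the vav-Cre transgene, which is known to drive Cre recombinase throughout the blood system from its earliest stages, so the deletion is not limited to GMP. The labels name no drug, virus or transplantation for these cells. The labels give no age of the mice, and whether each array is a separate animal is not stated, so the p-values cover the spread among these samples, some of which may be technical. The remaining 4 arrays were of transplanted GMP that carried ERt2 or RUNX1-ERt2 (2 arrays each). They entered the fit to share the estimate of the spread, so standard errors and p-values rest on all 12 arrays. They also counted in the filter on dim probes and in the choice of the probe for each gene.

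RUNX1 is a DNA-binding transcription factor that binds its sites together with CBFB and can activate or repress, depending on its partners. It is needed for the first blood stem cells of the embryo, and in adult bone marrow its loss is known for low platelet counts, a block in lymphocyte development and an expanded myeloid progenitor pool. GMP are sorted as Kit-bright cells that carry CD34 and the Fc receptors CD16/32, and they give rise to neutrophils, monocytes and, through later stages, basophils and mast cells.

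Values are log2 spot intensities of Cy3-labelled RNA minus the 75th percentile of the array, so that 0 is the 75th percentile itself, and a difference of 1 is a 2-fold change. Slide 1 carried replicates 1 and 2 of both genotypes. Slide 2 carried the others, and its file headers name a different protocol. Where 4 values are given for a genotype they are in the order of replicates 1 to 4. A single array had 56.7% to 63.2% of its 39429 probes well above background and none saturated, and the median processed intensity was 65.4 to 98.6. Arrays of the same genotype and slide correlated at 0.985 to 0.995, and arrays of different genotype and slide at 0.948 to 0.969. Arrays of the same genotype on different slides correlated at 0.971 to 0.986. Arrays of different genotype on the same slide did so at 0.964 to 0.974, and these 2 ranges overlap. In the authors' value table the 8 columns each matched the scanner values of another replicate of the same genotype, 1 with 3 and 2 with 4, which leaves genotype and the grouping by slide as they are.

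Among the 17905 genes tested, ko was higher for 2064 and lower for 2471 at an adjusted p under 0.05 (limma, two-sided, Benjamini-Hochberg), which is 25.3% of all genes, 11.5% in the higher and 13.8% in the lower direction. These shares are the background for the counts of list members below, whose share in all stands beside them as a percentage. At least 2-fold changes numbered 654 and 627, and at least 8-fold changes 55 and 96. The wt and ko arrays did not overlap for 4167 genes (23.3%), and 3468 of the called genes were among them. Of the calls 45.5% were higher, against 57.4% when arrays were scaled to their median and 58.6% with the authors' value table. The count of lower genes was 1447 to 1630 without wt replicate 1 or 2 or ko replicate 1, 2 or 4, and with normexp background correction 923 genes were higher and 1053 lower. On slide 1 alone, with 2 arrays against 2, 1877 genes were higher and 2340 lower. On slide 2 alone, also with 2 against 2, 180 and 199 genes passed, and most list counts and single calls below end there. Of 33 list medians, 13 lay within 0.1 of 0; each of these moved by over 1.5 times or changed sign under some alternative, and no direction is read from them. The median difference over all genes was −0.05 (−0.15 with normexp or with no filter on dim probes), and the median SE 0.137. The smallest called difference was 0.20 on the log2 scale. Called genes not well above background on any ko array numbered 91, and 98 were not well above background on any wt array, and their folds are written as "at least". Of the genes named below with a difference, some had a dimmer genotype with only part of its arrays well above background: 1 of 4 ko arrays for Cacnb2, Il17rb, Matn2 and Npdc1; 2 of 4 ko arrays for Nrp1, Plet1 and Spon2; 3 of 4 ko arrays for Upp1; 1 of 4 wt arrays for Podxl; 2 of 4 wt arrays for Cxcr1, Nid2, She and Zfpm2; 3 of 4 wt arrays for Glod5, Meg3, Plxnb3, Sox6 and Tspan18.

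The difference between genotypes was also taken within each slide. All 4535 called genes had the same sign of ko minus wt on both slides, as did 74.4% of all genes; these slides are the ones on which the calls were made. For no gene did the difference between the slides pass (limma interaction over the 8 arrays, lowest adjusted p = 0.0518; 1591 genes had an unadjusted p under 0.05, 8.9% of all). That count was 2 with quantile normalization and 2 without ko replicate 3. The 5 named genes with the smallest interaction p included Smim1, a small membrane protein of red cells, at −0.91, −1.002, −2.10 and −1.97 in wt and −1.84, −1.71, −0.06 and −0.18 in ko, and the water channel gene Aqp1 at 4.43, 4.28, 4.03 and 4.40 in wt and 3.05, 2.96, 6.23 and 5.91 in ko. Both were lower in ko on slide 1 and higher in ko on slide 2, with ko minus wt at −0.82 on slide 1 and 1.92 on slide 2 for Smim1, and −1.34 on slide 1 and 1.86 on slide 2 for Aqp1. Nqo1, a quinone reductase, moved likewise (−1.43 on slide 1 and 0.82 on slide 2). Plxdc1 differed by −2.31 on slide 1 and 0.39 on slide 2 and Bglap3 by −2.58 on slide 1 and −0.09 on slide 2. The Bglap3 call ended with normexp, array-median scaling, no dim-probe filter, no slide term, the replicate block or only the 8 arrays or without wt replicate 1 or 2 or ko replicate 1 or 2 (adjusted p from 0.0503 to 0.17). None of the 5 passed the adjusted interaction test.

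**Figure D1:**
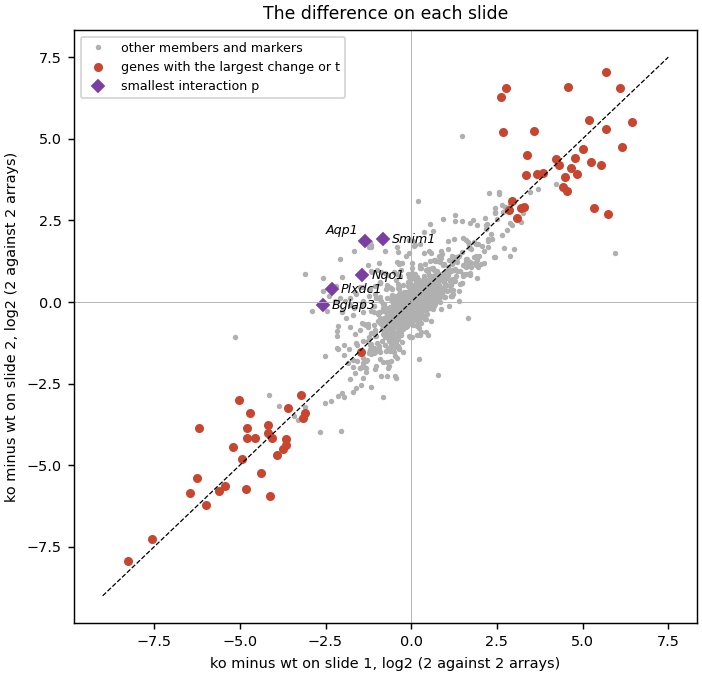
Difference between Runx1-deleted and wild-type GMP on slide 2 (y axis, log2) against that on slide 1 (x axis, log2), each from 2 ko and 2 wt arrays; red points are the genes with the largest changes or t, grey points are the other genes of the lists and markers, and purple diamonds are the 5 genes with the smallest interaction p. The red genes were chosen among those whose wt and ko arrays do not overlap, so their sign is the same on both slides by choice. Some red points are far from the dashed line of equal differences. Smim1, Aqp1 and Nqo1 have opposite signs on the slides.

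Genes that define GMP were present at high levels in both genotypes, and several were moved. Among 20 tested sort and identity genes 4 rose and 6 fell (50%), and the median difference was −0.39. This median was −0.072 on slide 1 and −0.525 on slide 2. Mpo, the myeloperoxidase of primary granules, read 7.70, 7.83, 8.19 and 8.15 in wt and 7.49, 7.54, 7.80 and 7.26 in ko (−0.44 ± 0.14, adjusted p = 0.045), so at 7.26 or more on every array, with ko replicate 3 above the lowest wt array. Cebpa, a transcription factor needed to form GMP, read 1.44, 1.76, 1.76 and 1.21 in wt and 0.93, 0.99, 0.38 and 0.19 in ko, and no ko array reached the lowest wt array (−0.92 ± 0.16, adjusted p = 0.0037). Flt3, a cytokine receptor of early and dendritic progenitors, fell by 1.08 (SE 0.20, adjusted p = 0.0051), and Ly6c1, a surface antigen of myeloid progenitors, fell by 2.40 (SE 0.41, adjusted p = 0.0037). The other Flt3 probes, well above background on all 8 arrays, disagreed, at −1.14 and −0.008 (limma adjusted p = 0.0097 and 0.99). Cd48, a surface protein gained as progenitors leave the stem cell state, was at 3.65, 3.71, 3.89 and 3.67 in wt and 4.76, 4.73, 4.57 and 4.62 in ko (0.94 ± 0.09, adjusted p = 0.00023). The beta chain shared by the receptors of IL-3, GM-CSF and IL-5, Csf2rb, rose by 0.89 ± 0.18, adjusted p = 0.007. Csf3r, the G-CSF receptor, was at 5.83, 5.56, 6.05 and 6.58 in wt and 5.75, 5.76, 6.04 and 6.56 in ko (0.02 ± 0.15, adjusted p = 0.93), and its groups overlapped. Of the sort markers, Cd34 was 5.97, 6.06, 6.32 and 6.33 in wt and 5.96, 5.83, 5.59 and 5.75 in ko (−0.39 ± 0.12, adjusted p = 0.042) and Kit 3.44, 3.47, 3.32 and 3.79 in wt and 4.22, 4.25, 3.63 and 4.02 in ko (0.53 ± 0.16, adjusted p = 0.038). Across settings the number that rose was 2 with normexp or no dim-probe filter and 2 without wt replicate 1 or 2 or ko replicate 1 or 2; the number that fell was 3 with normexp, quantile normalization, array-median scaling, the authors' values or no dim-probe filter and 3 without wt replicate 2 or 3 or ko replicate 2 or 4. The Mpo call ended with normexp, quantile normalization, array-median scaling, the authors' values, no dim-probe filter, no slide term, the replicate block, only the 8 arrays, slide 1 alone or the median over probes or without wt replicate 1, 2, 3 or 4 or ko replicate 1, 2 or 4 (adjusted p from 0.058 to 0.24). The Cd34 call ended with normexp, quantile normalization, array-median scaling, the authors' values, no dim-probe filter, the replicate block, only the 8 arrays, slide 1 alone or the median over probes or without wt replicate 2, 3 or 4 or ko replicate 2, 3 or 4 (adjusted p from 0.068 to 0.41). The Kit call ended with normexp, no dim-probe filter or only the 8 arrays or without wt replicate 1, 2 or 3 or ko replicate 1, 2 or 4 (adjusted p from 0.051 to 0.11).

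Genes of other blood cells were measured as lists, since a sorted fraction can hold some of them. In RNA of a whole population, fewer cells of a type and less RNA per cell cannot be told apart. Over all genes 11.5% were called higher and 13.8% lower, which is the background for the marker counts below. The level summed over the megakaryocyte markers was 10.4 to 16.3 in wt and 47.9 to 65.8 in ko as multiples of the 75th percentile of the array, with no overlap, and 6 of its 11 tested markers rose. The basophil and mast cell sum was 39.7 to 46.2 in wt and 54.3 to 86.8 in ko, with 3 markers higher and 6 lower of 12 tested. Within that list the genes went opposite ways: Cpa3, a mast cell protease, rose by 1.92 ± 0.24, adjusted p = 0.0008, whereas the protease Cma1 was at least 2.92-fold higher in wt (adjusted p = 0.00092). The monocyte and dendritic cell sum was 154 to 167 in wt and 109 to 131 in ko, and 10 of 15 markers fell, among them the chemokine receptor Cx3cr1 (−3.01 ± 0.37, adjusted p = 0.00069) and the transcription factor Irf8 (−1.57 ± 0.28, adjusted p = 0.0044). T and NK cell markers summed to 24.1 to 36.4 in wt and 10.8 to 17.4 in ko, with 2 of 12 lower, near the share of all genes. Their median marker did not fall, at 0.14, with −0.33 on slide 1 and 0.59 on slide 2. The erythroid sum was 49.7 to 85.2 in wt and 38.5 to 122 in ko, with the median marker −1.24 on slide 1 and 1.03 on slide 2. Car1, carbonic anhydrase of erythroid progenitors, was 4.06, 3.87, 3.18 and 3.01 in wt and −0.91, −1.44, 2.37 and 1.66 in ko, while Alas2, of late erythroid heme synthesis, was −2.49, −3.11, −2.99 and −3.69 in wt and −0.41, −1.57, −0.15 and −1.53 in ko. Sums of mature neutrophil (51.5 to 285 in wt and 22.2 to 286 in ko), eosinophil (13.6 to 46.7 in wt and 13.8 to 66.5 in ko), B cell (12.1 to 15.3 in wt and 8.23 to 13.6 in ko) and stroma and endothelium markers (7.59 to 10.3 in wt and 5.35 to 7.97 in ko) overlapped between genotypes. Stem cell and multipotent progenitor markers summed to 80.8 to 108 in wt and 89.9 to 108 in ko, also with overlap, though 6 of 13 rose and 3 fell. The B cell factor gene Pax5 and the stromal and endothelial genes Col3a1 and Cdh5 were not well above background on any of the 8 arrays. The Cma1 call ended with normexp or slide 1 alone (adjusted p from 0.054 to 0.06). The Car1 call ended with the replicate block or without wt replicate 1 or 2 or ko replicate 1 or 2 (adjusted p from 0.053 to 0.064). The Alas2 call ended with slide 1 alone (adjusted p = 0.068).

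**Figure D2:**
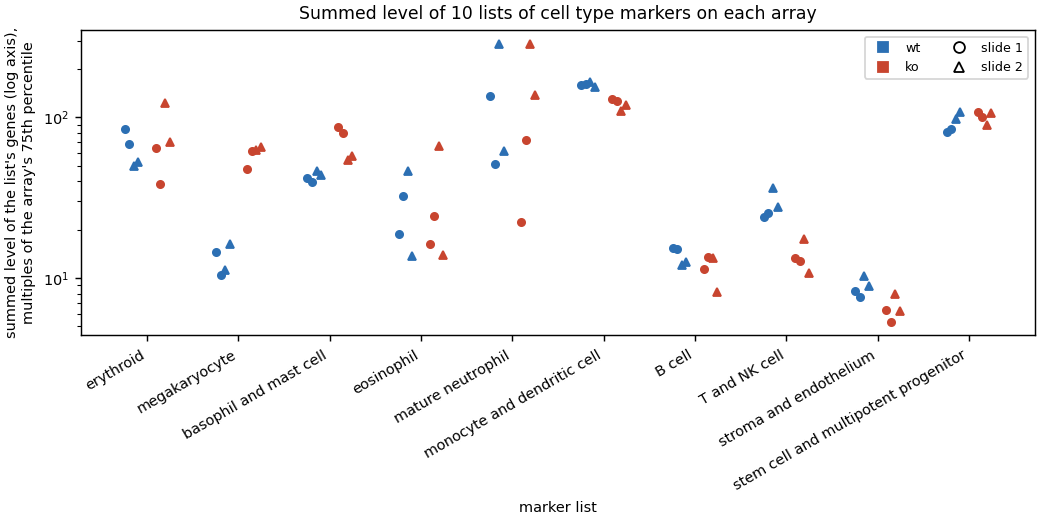
Level summed over each of 10 lists of cell type markers (x axis) on each array (y axis, multiples of the 75th percentile of intensity of the array, log axis), blue for wild type and red for Runx1-deleted GMP, circles for slide 1 and triangles for slide 2. The megakaryocyte, basophil and mast cell, monocyte and dendritic cell, and T and NK cell sums do not overlap between genotypes, and the erythroid, eosinophil and mature neutrophil sums vary severalfold within a genotype.

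Runx1 itself was measured by a pair of probes on chromosome 16 (mm9), at 92605785 to 92605844 and 92604413 to 92604472. The first probe read 1.18, 1.32, 2.23 and 2.13 in wt and 3.12, 2.87, 3.41 and 4.20 in ko, and the second 1.14, 1.22, 1.15 and 0.86 in wt and 3.05, 2.78, 2.44 and 2.53 in ko. On both probes every ko array was above every wt array, by 1.69 ± 0.17 and 1.61 ± 0.11 (limma adjusted p = 0.00025 on the gene scale for the first). The sources used here do not say where these probes lie relative to the deleted part, so they do not check the deletion. Runx3, another member of the family, was 0.19, 0.01, 0.18 and 0.30 in wt and 0.70, 0.45, 0.64 and 0.84 in ko and rose by 0.49 ± 0.10, adjusted p = 0.0098. Runx2, known for bone formation, was −2.65, −2.83, −2.52 and −2.85 in wt and −1.86, −2.25, −2.36 and −2.28 in ko and rose by 0.53 ± 0.14, adjusted p = 0.022. The shared partner Cbfb was 4.44, 4.44, 4.50 and 4.34 in wt and 4.43, 4.11, 4.23 and 3.98 in ko, and its difference of −0.24 ± 0.12, adjusted p = 0.17 did not pass. The Runx2 call ended with normexp or slide 1 alone or without wt replicate 1, 2 or 4 or ko replicate 1 or 4 (adjusted p from 0.0501 to 0.45). The Runx3 call ended with slide 1 alone (adjusted p = 0.077).

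The largest rises included genes of epithelium and matrix that are at or near background in wt GMP. Tff1, a trefoil peptide of stomach mucosa, was −7.43, −7.71, −7.28 and −7.18 in wt and −2.67, −2.93, −3.20 and −2.46 in ko, and no wt array was well above background, so that ko was at least 7.9-fold higher. Thbs2, a matrix thrombospondin, was −8.13, −7.44, −7.46 and −7.53 in wt and −3.15, −3.82, −3.45 and −3.14 in ko (at least 5.3-fold). Both genes sat at the background of the arrays in wt. C4b, a complement component, was well above background on all 8 arrays, at −2.55, −3.15, −2.69 and −2.37 in wt and 2.10, 1.90, 1.56 and 1.22 in ko (4.38 ± 0.40, adjusted p = 0.00016). Among the calcium-activated chloride channel regulators Clca3a1 was −1.71, −1.96, −2.97 and −2.17 in wt and 1.17, 0.38, 3.65 and 3.79 in ko and Clca3a2 −2.58, −2.89, −4.28 and −3.33 in wt and 0.41, −0.36, 2.67 and 2.85 in ko. For both genes the ko arrays of slide 2 lay above those of slide 1, and no array overlapped between genotypes (4.45 ± 0.77, adjusted p = 0.0041, and 4.66 ± 0.79, adjusted p = 0.0036). The pair are close copies, so one probe may read both. Podxl, a sialomucin of progenitor and endothelial surfaces, was −5.64, −7.52, −8.07 and −7.58 in wt and −4.07, −3.75, −2.07 and −3.18 in ko (3.93 ± 0.62, adjusted p = 0.0026). She, an SH2 domain adaptor, rose by 4.11 ± 0.52, adjusted p = 0.00087 and Glod5 by 3.98 ± 0.38, adjusted p = 0.0002. The Podxl call ended with normexp or slide 1 alone (adjusted p from 0.065 to 0.36). Tff1 and Thbs2 lost their calls with normexp background correction (adjusted p = 0.12 and 0.35).

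Some rises were smaller but very even across arrays, and they had the largest t values of limma. Tulp3, a protein of ciliary trafficking, was −4.70, −5.12, −5.32 and −5.11 in wt and −2.15, −1.98, −2.32 and −2.44 in ko (2.84 ± 0.12, adjusted p = 3.2e-06). Ppm1e, a protein phosphatase, was −3.21, −3.57, −3.71 and −3.41 in wt and 0.38, 0.17, 0.32 and 0.44 in ko (3.80 ± 0.16, adjusted p = 3.2e-06). Ecm1, a secreted matrix protein, was −0.49, −0.75, −0.05 and 0.31 in wt and 2.52, 2.63, 3.00 and 3.04 in ko (3.04 ± 0.14, adjusted p = 4.8e-06). The genotypes were far apart on all 3 genes and the replicates of a genotype close to each other. The palladin gene Palld, of actin bundles, rose by 3.02 ± 0.16, adjusted p = 8.2e-06, and Mamdc2 by 3.09 ± 0.16, adjusted p = 7.6e-06. Trap1a was at least 4.55-fold higher in ko (adjusted p = 3.2e-06). The Trap1a call ended with normexp background correction (adjusted p = 0.31).

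**Figure D3:**
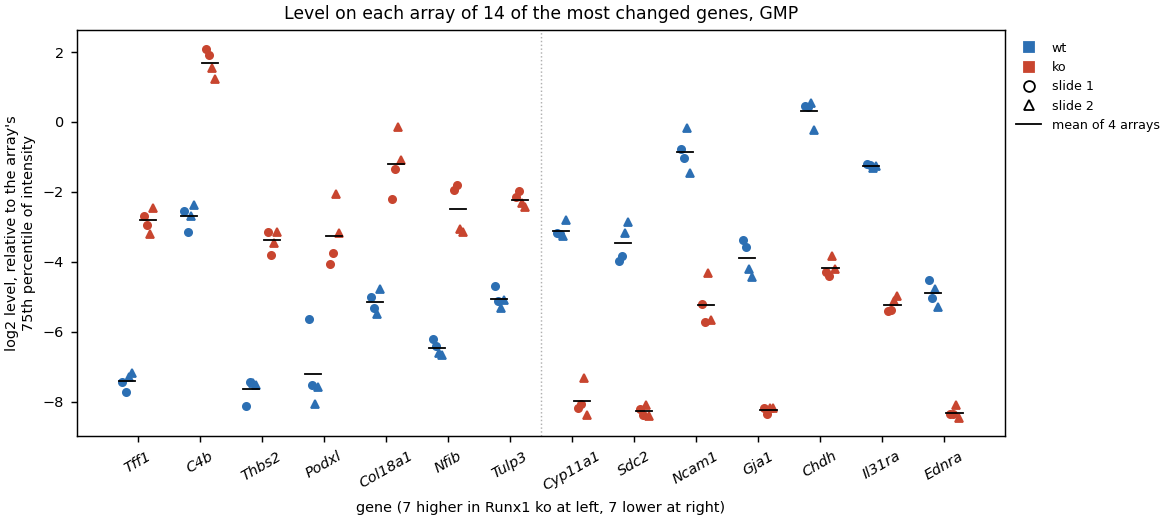
Level of 14 genes with large changes on each array (y axis, log2 relative to the 75th percentile of intensity of the array), 7 higher in Runx1-deleted GMP at left and 7 lower at right; blue is wild type, red Runx1-deleted, circles slide 1, triangles slide 2, and bars the means of 4 arrays. The genotypes do not overlap for any of the 14 genes, and levels near −8 are at the background of the arrays.

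The largest falls included adhesion, gap junction, steroid and metabolic genes. Cyp11a1, the enzyme that starts steroid synthesis from cholesterol, was −3.16, −3.22, −3.27 and −2.79 in wt and −8.17, −8.06, −7.31 and −8.37 in ko, and wt was at least 8.37-fold higher, since no ko array was well above background. Gja1, the gap junction protein connexin 43, was −3.37, −3.56, −4.21 and −4.45 in wt and −8.19, −8.36, −8.19 and −8.19 in ko (at least 4.84-fold). Cdh1, E-cadherin, was −2.65, −2.70, −2.74 and −2.57 in wt and −8.24, −7.98, −8.20 and −8.40 in ko (at least 11.4-fold). All 3 genes sat at the background of the arrays in ko. Chdh, a mitochondrial enzyme that oxidises choline, was measured in both genotypes, at 0.44, 0.44, 0.54 and −0.22 in wt and −4.29, −4.40, −3.83 and −4.20 in ko (−4.48 ± 0.27, adjusted p = 1.9e-05). Slc16a11, of the monocarboxylate transporter family, was 0.38, 0.71, −0.11 and 0.15 in wt and −4.16, −3.10, −4.45 and −3.58 in ko (−4.10 ± 0.29, adjusted p = 4.2e-05). Il31ra, a cytokine receptor subunit, was −1.20, −1.22, −1.32 and −1.25 in wt and −5.42, −5.37, −5.12 and −4.99 in ko (−3.98 ± 0.18, adjusted p = 4.5e-06), and its wt arrays were nearly equal. Arhgef25 fell by 4.04 (SE 0.50, adjusted p = 0.00072), and Spon2, a secreted matrix protein, fell by 4.02 (SE 0.69, adjusted p = 0.0039). Matn2, matrilin 2, fell by 4.31 (SE 0.43, adjusted p = 0.00025), and Npdc1 fell by 4.11 (SE 0.37, adjusted p = 0.00015). The endothelin receptor gene Ednra was −4.52, −5.02, −4.77 and −5.30 in wt and −8.35, −8.36, −8.11 and −8.47 in ko, at least 2.41-fold higher in wt. Ak4, a mitochondrial adenylate kinase, was 0.84, 1.03, 1.00 and 0.88 in wt and −2.15, −2.38, −1.67 and −2.17 in ko (−3.03 ± 0.15, adjusted p = 4.8e-06). Its other probe, well above background on 1 of 4 ko arrays, gave −1.47 and did not pass (limma adjusted p = 0.21). Rasd2, a Ras-like GTPase, was −2.17, −2.04, −2.05 and −2.06 in wt and −3.48, −3.66, −3.55 and −3.61 in ko (−1.50 ± 0.07, adjusted p = 4.8e-06). Tceal3 and Tceal6, members of a family of small nuclear proteins on the X chromosome, were at least 21-fold and at least 23.5-fold higher in wt; members of this family are alike in sequence, and their probes may read one another.

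The letters of the RUNX site were searched in the promoters of these genes, to show where they occur in the genes that moved most. The search took TGTGGT and TGCGGT on both strands (ACCACA and ACCGCA on the other) in windows of 300 bases, 250 before and 50 after the start, from RefSeq (GRCm38.p6). Of the 50 largest changes, 32 had a window, and 9 of these held the letters, 3 of 16 among the rises and 6 of 16 among the falls. Among all genes at least 2-fold higher, 90 of 390 windows held them (23.1%), and among those at least 2-fold lower 84 of 384 (21.9%), beside 21.3% of the 10553 windows of tested named genes and 22.5% of all 27025 windows. These shares are close to each other, and a match of 6 letters is a description and no evidence of binding. Shown are 5 windows that hold them, in lower case with the matching letters in capitals, each read 5′ to 3′ on the strand of its gene.
Dlk1 (chr12:109452573-109452872, plus strand): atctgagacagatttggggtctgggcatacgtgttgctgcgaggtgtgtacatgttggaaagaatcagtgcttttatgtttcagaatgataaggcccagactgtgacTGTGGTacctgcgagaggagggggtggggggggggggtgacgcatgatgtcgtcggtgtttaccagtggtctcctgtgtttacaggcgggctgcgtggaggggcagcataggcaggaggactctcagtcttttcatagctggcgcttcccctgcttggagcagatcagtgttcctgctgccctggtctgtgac
Meg3 (chr12:109540746-109541045, plus strand): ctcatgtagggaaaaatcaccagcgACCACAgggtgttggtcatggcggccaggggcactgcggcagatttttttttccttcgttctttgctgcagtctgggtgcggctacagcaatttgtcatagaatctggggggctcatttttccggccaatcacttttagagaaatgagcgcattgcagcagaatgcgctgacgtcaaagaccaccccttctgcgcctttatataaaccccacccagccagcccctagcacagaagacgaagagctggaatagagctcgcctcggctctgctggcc
Fcer1a (chr1:173227180-173227479, minus strand): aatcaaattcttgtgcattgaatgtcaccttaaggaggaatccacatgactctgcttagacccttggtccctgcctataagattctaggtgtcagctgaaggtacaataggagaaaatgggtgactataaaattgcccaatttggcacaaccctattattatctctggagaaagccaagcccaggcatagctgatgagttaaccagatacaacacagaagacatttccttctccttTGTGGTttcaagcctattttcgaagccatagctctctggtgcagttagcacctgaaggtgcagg
Gzmb (chr14:56262285-56262584, minus strand): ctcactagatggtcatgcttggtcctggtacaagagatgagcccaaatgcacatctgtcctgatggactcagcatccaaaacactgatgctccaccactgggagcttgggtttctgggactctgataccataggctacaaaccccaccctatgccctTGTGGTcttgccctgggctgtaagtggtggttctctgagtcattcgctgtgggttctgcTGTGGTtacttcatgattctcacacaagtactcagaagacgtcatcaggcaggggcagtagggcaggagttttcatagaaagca
Il17rb (chr14:30008847-30009146, minus strand): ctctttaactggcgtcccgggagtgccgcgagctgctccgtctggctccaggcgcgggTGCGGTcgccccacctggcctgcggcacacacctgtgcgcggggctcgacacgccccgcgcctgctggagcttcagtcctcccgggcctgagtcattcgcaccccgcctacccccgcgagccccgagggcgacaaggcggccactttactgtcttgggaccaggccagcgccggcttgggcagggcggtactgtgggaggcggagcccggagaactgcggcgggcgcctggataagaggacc

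In the window of Dlk1, a transmembrane protein of the Notch ligand family, the letters begin 143 bases before the start, and its level was −4.52, −4.57, −4.92 and −4.77 in wt and 1.32, 0.96, 0.79 and 0.14 in ko (5.50 ± 0.24, adjusted p = 3.2e-06). Meg3, a long noncoding RNA of the same imprinted region, has them at 225 bases before the start and was −5.98, −5.64, −5.02 and −3.83 in wt and 0.15, −0.31, −1.84 and −1.64 in ko (4.21 ± 0.65, adjusted p = 0.0024). Fcer1a, the IgE-binding receptor chain, has them 14 bases before its start and was −0.42, −0.75, −0.51 and 0.05 in wt and −8.05, −8.26, −8.02 and −7.00 in ko, at least 54.4-fold higher in wt. Gzmb, granzyme B of cytotoxic granules, holds them at 93 and 34 bases before the start and was −0.19, 0.49, 0.92 and 0.48 in wt and −5.22, −4.11, −4.54 and −5.50 in ko (−5.26 ± 0.53, adjusted p = 0.00025). Il17rb, the receptor subunit for IL-25, has them 192 bases before its start and was −0.63, −0.51, −0.73 and −0.80 in wt and −6.60, −6.52, −8.07 and −5.92 in ko (−6.11 ± 0.56, adjusted p = 0.00017). Only 1 of its 4 ko arrays was well above background, and the gene's other probe gave −3.18 with none. Its window overlaps that of Chdh on the opposite strand by 203 bases, and the annotated starts of the pair lie 104 bases apart, head to head; both genes fell.

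Most of the tested receptors of platelets and their progenitors rose. Among 19 tested members 11 rose and 1 fell (63.2%), and the median difference was 1.73. The median of the list was 1.03 with normexp. F2r, a thrombin receptor, was 1.31, 1.25, 1.93 and 2.79 in wt and 4.23, 4.08, 4.90 and 4.67 in ko (2.65 ± 0.25, adjusted p = 0.00021). P2rx1, an ATP-gated channel of platelets, was −0.12, −0.16, 0.13 and 0.37 in wt and 2.35, 2.21, 1.501 and 1.78 in ko (1.90 ± 0.26, adjusted p = 0.0013), and Selp, P-selectin of platelet granules, was −2.32, −1.76, −1.88 and −1.78 in wt and 0.70, 0.65, −0.50 and 0.14 in ko (2.18 ± 0.23, adjusted p = 0.00036). No array overlapped between genotypes for these 3 genes. Itga2b, the integrin chain of the fibrinogen receptor, rose by 2.21 ± 0.24, adjusted p = 0.00041. F2rl2, a cofactor of thrombin receptors, was at least 4.52-fold higher. The thromboxane receptor Tbxa2r went the other way, at −1.23, −1.39, −1.51 and −1.49 in wt and −2.86, −2.19, −2.95 and −3.18 in ko (−1.39 ± 0.26, adjusted p = 0.0056). Of 28 tested genes of platelet granules, cytoskeleton and signalling, 12 rose and 2 fell (50%), with a median difference of 0.60. Rab27b, a GTPase of platelet dense granules, was −1.27, −1.40, −1.17 and −1.13 in wt and 0.93, 0.82, 1.14 and 1.34 in ko (2.30 ± 0.24, adjusted p = 0.00032), and Slc35d3, needed for dense granules, was −1.94, −2.33, −2.31 and −2.11 in wt and 0.19, 0.40, 0.67 and 0.39 in ko (2.58 ± 0.65, adjusted p = 0.02). The SE of Slc35d3 is pooled over all 12 arrays and is wider than the range of its wt values or of its ko values. Plek, pleckstrin, a kinase C substrate of platelets, rose by 1.45 ± 0.26, adjusted p = 0.0044, and Serpine2, a protease inhibitor, fell by 1.85 (SE 0.38, adjusted p = 0.0087). These counts move with the megakaryocyte markers given above, whose summed level was 10.4 to 16.3 in wt and 47.9 to 65.8 in ko; the part of such cells in the change was not tested. Pf4, platelet factor 4, was 2.59, 1.90, 1.98 and 2.41 in wt and 1.86, 3.50, 1.42 and 1.13 in ko (−0.24 ± 0.64, adjusted p = 0.82), and its groups overlapped. The number that fell was 4 with slide 1 alone. The Slc35d3 call ended without wt replicate 2 or ko replicate 4 (adjusted p from 0.051 to 0.055). The F2rl2 call ended with normexp background correction (adjusted p = 0.55).

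Adhesion and niche genes went both ways. Of the 24 tested members, 10 rose and 6 fell (66.7%), with a median difference of 0.20. Alternatives put the median at 0.098 with normexp, 0.051 with no dim-probe filter and 0.12 without ko replicate 3. Jam3, a junctional adhesion molecule, had the largest difference of the list, at −4.42, −4.19, −4.95 and −4.82 in wt and 1.77, 1.80, 1.55 and 1.79 in ko (6.32 ± 0.38, adjusted p = 1.9e-05). Tek, the angiopoietin receptor Tie2, was −3.71, −3.72, −3.46 and −3.28 in wt and −0.36, −0.53, −0.69 and −0.61 in ko (3.00 ± 0.20, adjusted p = 3.3e-05), and Itga6, an integrin chain for laminin, was 3.16, 2.90, 3.09 and 3.78 in wt and 4.50, 4.38, 4.22 and 4.54 in ko (1.18 ± 0.17, adjusted p = 0.0015). Emcn, endomucin, rose by 1.47 ± 0.18, adjusted p = 0.00065. On the other side Ncam1, a neural cell adhesion molecule, was −0.78, −1.02, −0.17 and −1.46 in wt and −5.20, −5.72, −4.32 and −5.66 in ko (−4.37 ± 0.42, adjusted p = 0.0002), and Alcam, which binds CD6, was −2.03, −2.15, −1.82 and −1.96 in wt and −3.60, −3.87, −3.84 and −4.33 in ko (−1.92 ± 0.16, adjusted p = 8.7e-05). Procr, the protein C receptor of stem cells, fell by 0.94 (SE 0.17, adjusted p = 0.0047). Stem cell genes of the list thus did not move one way: Tek was higher and Procr lower. Alternatives put the lower count at 3 with no slide term. The Itga6 call ended with the median over probes (adjusted p = 0.057). The gene's other probe, well above background on all 8 arrays, gave −0.06 (limma adjusted p = 0.88). The Emcn call ended with normexp background correction (adjusted p = 0.15).

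Matrix genes also split. Among 37 tested members 10 rose and 6 fell (43.2%), and the median difference was 0.14. Other settings gave a median of −0.18 with normexp, −0.018 with no dim-probe filter, 0.215 with the filter over all 12 arrays, 0.030 on slide 1 and 0.25 on slide 2, −0.093 without wt replicate 4, −0.008 without ko replicate 3 and 0.081 without ko replicate 4. Col18a1, collagen XVIII of basement membranes, was −5.00, −5.31, −5.48 and −4.78 in wt and −2.20, −1.33, −0.15 and −1.09 in ko (3.95 ± 0.44, adjusted p = 0.00043), and Col4a2, a chain of collagen IV, was −3.28, −3.08, −3.74 and −3.65 in wt and −1.24, −0.63, −1.93 and −2.09 in ko (1.96 ± 0.23, adjusted p = 0.00063). Its partner chain Col4a1 rose by 1.46 ± 0.27, adjusted p = 0.0054, and Nid2, nidogen 2, which links basement membrane proteins, by 1.69 ± 0.20, adjusted p = 0.00061. The protease Adamts9 was at least 4.27-fold higher in ko. Sdc2, a heparan sulfate proteoglycan, was −3.98, −3.83, −3.18 and −2.86 in wt and −8.20, −8.37, −8.10 and −8.42 in ko, at least 6.55-fold higher in wt, and Gpc1, another of that kind, was 2.98, 2.78, 3.90 and 3.26 in wt and 1.38, 1.16, 1.23 and 0.67 in ko (−2.12 ± 0.24, adjusted p = 0.00049). Col1a2, a chain of collagen I, was −1.05, −0.81, −1.76 and −1.30 in wt and −5.39, −4.79, −4.39 and −4.36 in ko (−3.50 ± 0.29, adjusted p = 8.7e-05). Stroma and endothelium markers summed to 7.59 to 10.3 in wt and 5.35 to 7.97 in ko, and these ranges overlapped. Col3a1 and Cdh5 were not well above background on any of the 8 arrays, and the part of such cells in the matrix changes was not tested. Alternatives put the number that rose at 5 with normexp; the number that fell was 3 with the filter over all 12 arrays and 10 with slide 1 alone. Col4a1, Nid2 and Adamts9 lost their calls with normexp background correction (adjusted p = 0.33, 0.99 and 0.28).

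Guidance molecules, named for their part in the growth of axons, are also read by blood cells that move and adhere. Among 31 tested members 8 rose and 4 fell (38.7%), and the median difference was 0.19. The list median was −0.067 with normexp, 0.11 with no dim-probe filter, 0.22 on slide 1 and 0.029 on slide 2, 0.029 without wt replicate 3 and 0.011 without ko replicate 4. Sema7a, a membrane-anchored semaphorin, was −3.41, −3.33, −4.31 and −3.76 in wt and −1.15, −1.09, −2.25 and −1.96 in ko (2.09 ± 0.16, adjusted p = 6.0e-05), and its receptor gene Plxnc1 rose by 1.47 ± 0.21, adjusted p = 0.0017. Plxnb3, a plexin, was −5.27, −5.88, −4.91 and −4.76 in wt and −2.86, −2.67, −2.58 and −2.69 in ko (2.51 ± 0.33, adjusted p = 0.001). The ephrin receptors parted: Epha4 was at least 1.93-fold higher in ko, whereas Epha7 was −2.58, −2.27, −2.36 and −2.57 in wt and −4.63, −4.14, −5.68 and −5.09 in ko (−2.44 ± 0.29, adjusted p = 0.00062). Sema4a fell by 1.80 (SE 0.37, adjusted p = 0.0085), and Nrp1, a semaphorin and VEGF coreceptor, was −3.54, −3.65, −3.38 and −4.54 in wt and −4.44, −4.41, −6.60 and −7.12 in ko (−1.87 ± 0.42, adjusted p = 0.013), with wt replicate 4 below ko replicates 1 and 2. Under other settings the higher count was 5 with normexp; the lower count was 2 with the filter over all 12 arrays or no slide term. Plxnb3 and Epha4 lost their calls with normexp background correction (adjusted p = 0.19 and 0.93). The Nrp1 call ended with no slide term (adjusted p = 0.055).

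Genes of signal transmission below G protein-coupled receptors were higher more often than lower. Among 32 tested members 12 rose and 3 fell (46.9%), and the median difference was 0.20. Gng11, a gamma subunit, was 0.80, 0.53, 0.98 and 1.07 in wt and 3.67, 3.58, 3.28 and 3.47 in ko (2.65 ± 0.20, adjusted p = 6.6e-05), and Gnb4, a beta subunit, was −0.83, −0.77, −0.61 and 0.28 in wt and 1.56, 1.20, 2.02 and 2.34 in ko (2.27 ± 0.27, adjusted p = 0.00063). Gna14 and Gnaq, alpha subunits that activate phospholipase C, rose by 1.48 ± 0.21, adjusted p = 0.0015 and 0.67 ± 0.08, adjusted p = 0.0006. Rgs10, Rgs14 and Rgs18, which switch G proteins off, rose by 0.84, 0.57 and 0.63. The number that fell was 1 with normexp, array-median scaling or the authors' values and 1 without ko replicate 4.

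The receptors themselves moved in both directions. Of the 40 tested members, 10 rose and 5 fell (37.5%), with a median difference of 0.02. S1pr3, a sphingosine 1-phosphate receptor, was −0.49, −0.25, −1.08 and −0.99 in wt and −2.09, −2.23, −3.08 and −3.71 in ko (−2.08 ± 0.20, adjusted p = 0.00019), while S1pr1, which steers exit from tissues, was −2.21, −2.40, −1.80 and −0.31 in wt and −0.16, −0.54, −0.25 and 0.27 in ko (1.51 ± 0.36, adjusted p = 0.015). Ptgir, the prostacyclin receptor, was −1.93, −2.39, −2.33 and −2.97 in wt and −0.34, 0.24, −1.24 and −1.68 in ko (1.65 ± 0.26, adjusted p = 0.0025), and Adgre5, the adhesion receptor CD97, rose by 1.06 ± 0.09, adjusted p = 7.9e-05. Gpr34, a lysophosphatidylserine receptor, was at least 2.84-fold higher in wt. Higher members numbered 6 with no dim-probe filter or no slide term and 4 to 6 without wt replicate 1 or 2 or ko replicate 1 or 2; lower members numbered 2 with no slide term, 3 with the filter over all 12 arrays and 3 without wt replicate 1, 2 or 4 or ko replicate 4. The S1pr1 call ended without wt replicate 2 or ko replicate 1 (adjusted p from 0.051 to 0.052).

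Second messenger genes included several phosphodiesterases, which break down cyclic nucleotides. Of the 37 tested members, 10 rose and 4 fell (37.8%), with a median difference of 0.04. Pde2a was 2.26, 2.21, 2.80 and 2.08 in wt and 4.17, 4.10, 3.78 and 3.51 in ko (1.55 ± 0.22, adjusted p = 0.0014), and Pde3b was −0.12, −0.05, −0.09 and −0.25 in wt and 1.26, 1.18, 0.66 and 0.60 in ko (1.05 ± 0.11, adjusted p = 0.00028). Pde1b rose by 1.15 ± 0.18, adjusted p = 0.0026 and Pde4b by 1.31 ± 0.32, adjusted p = 0.016, whereas Pde7a fell by 0.89 (SE 0.14, adjusted p = 0.0026). Rapgef3, the cAMP-gated exchange factor Epac1, was 1.47, 1.49, 1.83 and 2.10 in wt and −0.28, −0.45, −0.02 and 0.24 in ko (−1.85 ± 0.13, adjusted p = 3.6e-05). Rapgef3 and Pde7a thus fell while the other phosphodiesterases named rose. The Pde4b call ended with the replicate block or without wt replicate 1 or ko replicate 1 (adjusted p from 0.051 to 0.056).

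Genes of enzymes that make prostaglandins, thromboxane and leukotrienes from arachidonic acid were changed at separate branches. Of the 20 tested members, 2 rose and 6 fell (40%), with a median difference of −0.07. Ptgs1, cyclooxygenase 1, was 0.79, 0.44, 0.89 and 0.64 in wt and 2.65, 2.83, 2.33 and 2.32 in ko (1.84 ± 0.17, adjusted p = 0.00017), and the thromboxane synthase Tbxas1 rose by 0.95 ± 0.22, adjusted p = 0.013. Ptgds, a prostaglandin D synthase, was −3.01, −3.04, −2.32 and −2.38 in wt and −5.28, −5.44, −5.51 and −5.29 in ko (−2.69 ± 0.24, adjusted p = 0.00014). Lta4h, which makes leukotriene B4, was 4.42, 4.31, 4.76 and 4.42 in wt and 3.49, 3.56, 3.56 and 3.24 in ko (−1.01 ± 0.14, adjusted p = 0.0014). Ephx2, an epoxide hydrolase, was −2.001, −2.23, −3.33 and −2.96 in wt and −8.22, −8.39, −6.69 and −7.30 in ko, at least 11.7-fold higher in wt. The number of higher members was 4 with the replicate block and 4 with the 8 arrays alone.

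Adaptors and kinases that act below antigen and Fc receptors were higher more often than lower. Among 39 tested members 13 rose and 2 fell (38.5%), and the median difference was 0.32. This median was 0.20 with normexp and 0.31 on slide 1 and 0.16 on slide 2. Lat, a scaffold of T cells and platelets, was −0.52, −0.52, 0.13 and 0.91 in wt and 2.10, 1.88, 3.00 and 3.11 in ko (2.52 ± 0.29, adjusted p = 0.00049), and Lcp2, its partner SLP-76, was −2.54, −2.71, −2.49 and −2.21 in wt and −1.08, −0.95, −1.11 and −1.12 in ko (1.42 ± 0.14, adjusted p = 0.00027). Grap, a GRB2-like adaptor, was −2.95, −3.24, −3.54 and −3.51 in wt and −0.53, −0.18, −0.36 and −0.89 in ko (2.82 ± 0.19, adjusted p = 3.4e-05), and Dok2, an adaptor that dampens signals, rose by 1.76 ± 0.24, adjusted p = 0.0013. Of the kinases Btk rose by 0.67 ± 0.09, adjusted p = 0.0014 and Lyn by 0.39 ± 0.08, adjusted p = 0.0073, and Lck fell by 1.30 (SE 0.25, adjusted p = 0.0066). The higher count was 7 with normexp and 8 without wt replicate 2 or ko replicate 1; the lower count was 1 with normexp, quantile normalization, array-median scaling, the authors' values, no dim-probe filter, no slide term, the replicate block, only the 8 arrays or slide 1 alone and 1 without wt replicate 1, 2, 3 or 4 or ko replicate 1, 3 or 4. T and NK cell markers, of which Lck is one, summed to 24.1 to 36.4 in wt and 10.8 to 17.4 in ko. Their median difference was 0.14, and their part in these values was not tested. The Lyn call ended with normexp background correction (adjusted p = 0.51).

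The TGF-beta and BMP pathway, known to hold progenitors quiescent, had more higher members than lower ones. The list had 30 tested members, of which 12 rose and 1 fell (43.3%; median difference 0.26). The median of the list was 0.065 with normexp and 0.39 on slide 1 and 0.325 on slide 2. Among the receptors, Acvr1b, a type I activin receptor, was 0.88, 1.03, 0.16 and 0.48 in wt and 2.79, 2.84, 1.46 and 1.57 in ko (1.53 ± 0.16, adjusted p = 0.00031), and Tgfbr2, the type II receptor for TGF-beta, was 1.13, 1.13, 1.12 and 0.99 in wt and 2.53, 2.29, 1.55 and 1.82 in ko (0.95 ± 0.20, adjusted p = 0.0084). Acvr2b rose by 0.88 ± 0.19, adjusted p = 0.011. Of the ligands, Tgfb1 rose by 0.66 ± 0.12, adjusted p = 0.0046, and Ltbp3, which stores latent TGF-beta, was 0.66, 0.75, 1.34 and 1.49 in wt and 2.25, 2.13, 1.76 and 2.26 in ko (1.04 ± 0.24, adjusted p = 0.014). Smad1, which carries BMP signals to the nucleus, rose by 0.68 ± 0.15, adjusted p = 0.011. The lone lower member, the ligand Tgfb3, was −5.69, −5.52, −5.95 and −5.82 in wt and −6.29, −6.29, −6.01 and −6.56 in ko (−0.55 ± 0.17, adjusted p = 0.047), well above background on 1 of 8 arrays. The Tgfb3 call ended with normexp, quantile normalization, array-median scaling, the authors' values, no dim-probe filter or no slide term or without wt replicate 1, 2, 3 or 4 or ko replicate 1, 2 or 4 (adjusted p from 0.055 to 0.31). The Tgfb1 call ended with slide 1 alone (adjusted p = 0.072). The Smad1 call ended with the replicate block (adjusted p = 0.055).

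**Figure D4:**
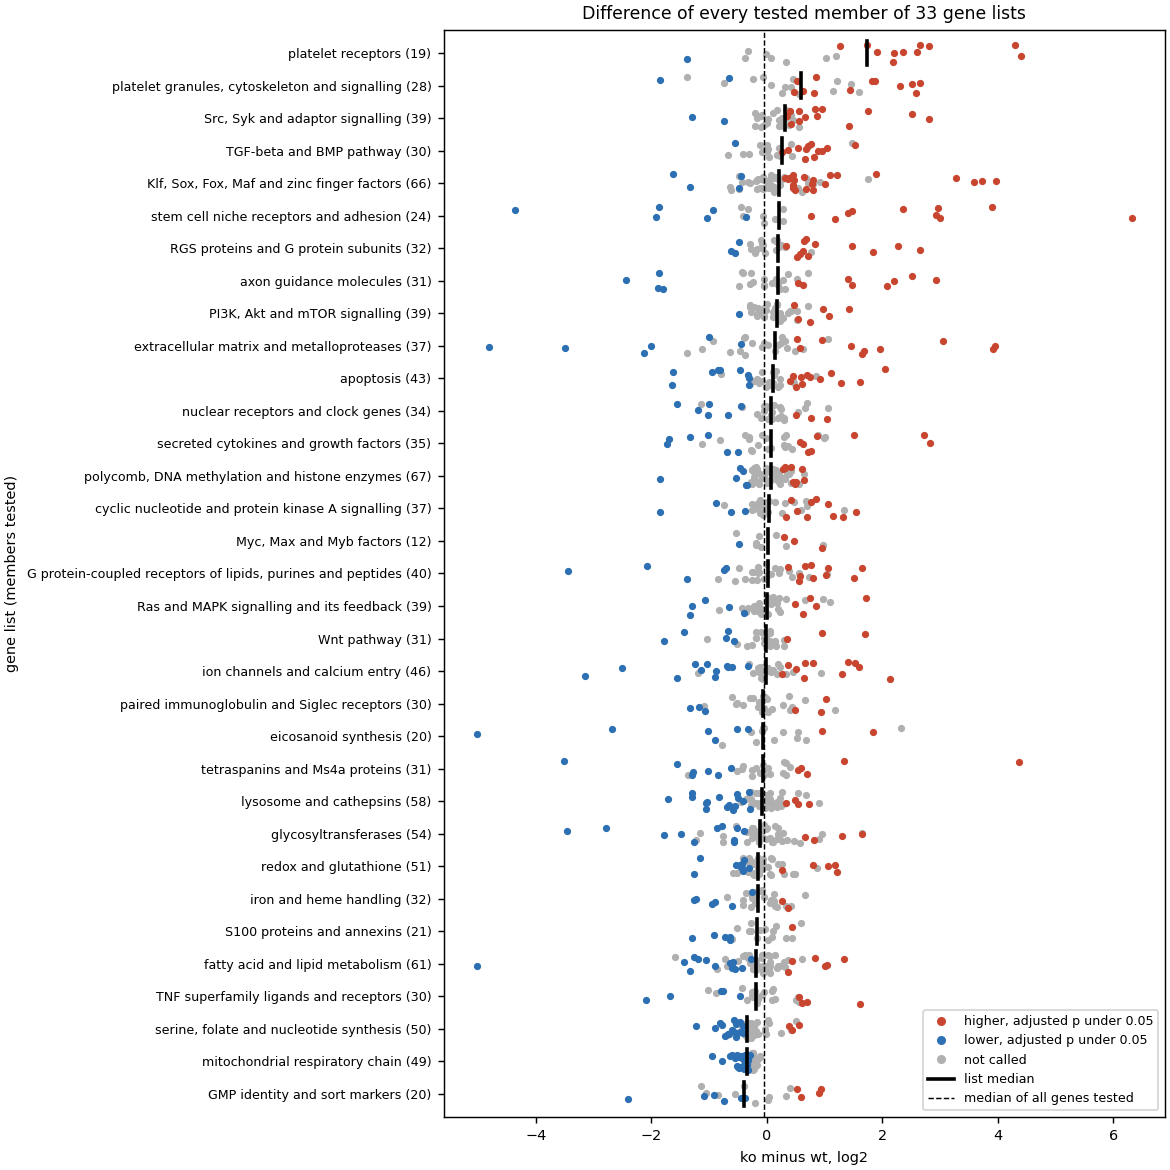
Difference between Runx1-deleted and wild-type GMP (x axis, log2) for every tested member of 33 gene lists (y axis, with the number of members tested), ordered by list median; red points are higher and blue points lower at an adjusted p under 0.05, grey points were not called, black bars are list medians and the dashed line is the median of all genes, −0.05. List medians run from −0.39 for GMP identity and sort markers to 1.73 for platelet receptors, and most lists hold members called in both directions.

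Wnt receptors of the frizzled family moved apart. The list had 31 tested members, of which 3 rose and 5 fell (25.8%; median difference −0.02). Fzd6 was −3.29, −3.45, −3.31 and −3.30 in wt and −1.46, −1.34, −2.02 and −1.75 in ko (1.70 ± 0.13, adjusted p = 6.6e-05), whereas Fzd3 was −3.62, −3.43, −3.42 and −3.29 in wt and −5.34, −6.03, −4.90 and −4.66 in ko (−1.79 ± 0.20, adjusted p = 0.00051) and Fzd9 was −3.08, −2.74, −3.24 and −3.56 in wt and −4.11, −4.94, −4.66 and −4.67 in ko (−1.44 ± 0.27, adjusted p = 0.0054). No array overlapped for the 3 receptors. Wnt5b, a ligand, rose by 0.96 ± 0.17, adjusted p = 0.005. Alternatives put the number that rose at 1 with normexp; the number that fell was 2 with normexp, 3 with array-median scaling, the authors' values or the filter over all 12 arrays and 2 to 3 without wt replicate 1, 2 or 3 or ko replicate 2 or 4. The Wnt5b call ended with normexp or no slide term (adjusted p from 0.055 to 0.64).

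Transcription factors of the Klf, Sox, Fox and zinc finger families included several that are known from fetal and stem cells. The list had 66 tested members, of which 21 rose and 4 fell (37.9%; median difference 0.21). Alternatives put the median at 0.14 with no dim-probe filter, 0.11 on slide 1 and 0.35 on slide 2 and 0.11 without ko replicate 4. Nfib, a nuclear factor I gene, was −6.20, −6.39, −6.60 and −6.65 in wt and −1.96, −1.81, −3.05 and −3.15 in ko, at least 9.87-fold higher in ko. Sox6, known from red cell and cartilage development, was −4.96, −5.53, −5.65 and −5.01 in wt and −1.28, −1.82, −2.15 and −1.56 in ko (3.59 ± 0.33, adjusted p = 0.00015). Hmga2, a chromatin protein of fetal stem cells, was −0.76, −0.52, −1.02 and −0.93 in wt and 1.46, 1.39, 0.35 and 1.11 in ko (1.89 ± 0.17, adjusted p = 0.00015), and Foxo1, which opposes growth factor signals, was −0.88, −0.92, −0.73 and −0.87 in wt and 0.41, 0.25, 0.51 and 0.31 in ko (1.22 ± 0.08, adjusted p = 2.9e-05). The groups were apart for all 4 genes. The fetal RNA-binding protein Igf2bp3 differed between the ko arrays, at −6.29, −7.36, −8.04 and −7.52 in wt and −0.93, −0.82, −4.45 and −8.09 in ko (at least 4.68-fold, adjusted p = 0.027; 3 ko arrays and no wt array were well above background). Zfpm2, a cofactor of GATA factors, was −5.04, −3.53, −8.30 and −7.77 in wt and −2.72, −2.86, −3.28 and −2.63 in ko (3.28 ± 0.70, adjusted p = 0.0097), with its wt arrays apart by slide. Nfe2, a factor of platelet formation, rose by 0.64 ± 0.11, adjusted p = 0.0034. Lmo4, a LIM domain cofactor, was 4.03, 4.08, 3.83 and 3.99 in wt and 2.83, 2.87, 2.49 and 2.39 in ko (−1.34 ± 0.13, adjusted p = 0.00019). Under other settings the higher count was 13 with normexp; the lower count was 1 with normexp, 2 with array-median scaling or the authors' values and 1 to 2 without wt replicate 1 or ko replicate 1, 2 or 4. The Igf2bp3 call ended with normexp, no dim-probe filter, no slide term or the replicate block or without wt replicate 1 or 2 or ko replicate 1, 2 or 3 (adjusted p from 0.051 to 0.18). The Zfpm2 call ended with normexp or slide 1 alone (adjusted p from 0.13 to 0.17). The Nfib call ended with normexp background correction (adjusted p = 0.056).

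Chromatin enzymes were called about as often as all genes. The list had 67 tested members, of which 9 rose and 6 fell (22.4%; median difference 0.06). Hdac9, a class IIa histone deacetylase, was −2.11, −2.19, −2.49 and −2.75 in wt and −3.65, −3.44, −4.95 and −4.94 in ko (−1.86 ± 0.17, adjusted p = 0.00019) and was the member with the largest difference. The related histone methyltransferases Ezh1 and Ezh2 parted, at 0.49 ± 0.10, adjusted p = 0.007 and −0.37 ± 0.09, adjusted p = 0.014, and Eed, a subunit that serves both, changed by −0.35 ± 0.07, adjusted p = 0.0099. Across settings the number that rose was 4 with normexp or no slide term, 5 with no dim-probe filter or slide 1 alone and 5 without wt replicate 2 or ko replicate 1 or 2; the number that fell was 1 with normexp or slide 1 alone and 3 with array-median scaling or the authors' values. The Ezh2 call ended with normexp, array-median scaling, the authors' values or slide 1 alone (adjusted p from 0.051 to 0.12). The Eed call ended with normexp, array-median scaling, the authors' values, no slide term or slide 1 alone (adjusted p from 0.06 to 0.14).

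Myc and its antagonists share the partner Max. Mxd1, an antagonist of Myc, was −0.11, −0.48, −0.13 and −0.26 in wt and 0.67, 0.75, 0.83 and 0.60 in ko (0.96 ± 0.11, adjusted p = 0.00052), and the related Mxd4 rose by 0.47 ± 0.09, adjusted p = 0.0077. Among 12 tested members 3 rose and 1 fell (33.3%), and the median difference was 0.03. Myc itself was 3.31, 3.37, 2.90 and 2.75 in wt and 3.08, 3.14, 2.92 and 2.42 in ko (−0.19 ± 0.11, adjusted p = 0.24), and Myb was 5.44, 5.34, 5.38 and 5.72 in wt and 5.28, 5.14, 5.29 and 5.41 in ko (−0.19 ± 0.09, adjusted p = 0.16). Neither passed, and the lower member was Mxd3 (−0.49 ± 0.15, adjusted p = 0.037). The Mxd3 call ended with array-median scaling, the authors' values, no dim-probe filter, no slide term, the replicate block, only the 8 arrays or slide 1 alone or without wt replicate 1, 2, 3 or 4 or ko replicate 1 or 4 (adjusted p from 0.054 to 0.39).

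Nuclear receptors and clock genes were called at about the share of all genes. Among 34 tested members 3 rose and 6 fell (26.5%), and the median difference was 0.08. Vdr, the vitamin D receptor, was −1.70, −1.57, −1.27 and −1.80 in wt and −2.92, −2.97, −3.50 and −3.21 in ko (−1.56 ± 0.17, adjusted p = 0.00045), and Esr1, the estrogen receptor alpha, was −3.53, −3.47, −2.88 and −3.35 in wt and −4.43, −4.45, −4.68 and −4.45 in ko (−1.19 ± 0.15, adjusted p = 0.00095). Rara, a retinoic acid receptor, was 0.16, 0.11, 0.11 and −0.08 in wt and 1.01, 0.93, 1.26 and 1.24 in ko (1.03 ± 0.16, adjusted p = 0.0026). The clock genes Per2 and Nfil3 fell by 1.00 and 1.03 (adjusted p = 0.0037 and 0.0098). The higher count was 1 with normexp and 1 without wt replicate 1.

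Genes of programmed cell death were changed on both the protective and the killing side. The list had 43 tested members, of which 12 rose and 9 fell (48.8%; median difference 0.10). Other settings gave a median of 0.155 with quantile normalization and 0.16 on slide 1 and 0.11 on slide 2. Bcl2, which protects, was 1.74, 1.55, 1.78 and 2.11 in wt and −0.21, −0.45, 0.50 and 0.78 in ko (−1.64 ± 0.20, adjusted p = 0.00066), while Bcl2l1, the related Bcl-x, was 1.63, 1.77, 2.00 and 1.89 in wt and 2.99, 3.08, 3.30 and 3.06 in ko (1.28 ± 0.11, adjusted p = 8.9e-05) and Mcl1 rose by 0.61 ± 0.11, adjusted p = 0.0044. On the killing side Bmf was −3.28, −4.002, −4.02 and −4.57 in wt and −1.33, −1.48, −2.49 and −2.40 in ko (2.05 ± 0.20, adjusted p = 0.00025) and Bbc3, known as Puma, rose by 1.11 ± 0.22, adjusted p = 0.0071. Bok was −2.98, −2.84, −2.37 and −2.12 in wt and −4.23, −4.42, −4.06 and −4.14 in ko (−1.64 ± 0.12, adjusted p = 5.8e-05). The death receptor Fas was −3.63, −4.03, −3.22 and −3.35 in wt and −2.01, −2.005, −1.97 and −1.82 in ko (1.60 ± 0.12, adjusted p = 5.6e-05). Bcl2 and Bcl2l1 thus moved in opposite directions, each without overlap. The higher count was 6 with normexp; the lower count was 5 with array-median scaling, the authors' values or no dim-probe filter and 5 without wt replicate 2 or ko replicate 1, 2 or 4. The Mcl1 call ended with slide 1 alone (adjusted p = 0.058).

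Among ligands and receptors of the TNF superfamily, Fas was the member with the largest rise. The list had 30 tested members, of which 4 rose and 5 fell (30%; median difference −0.18). The list median was −0.12 with the filter over all 12 arrays, −0.063 on slide 1 and −0.14 on slide 2 and −0.11 without wt replicate 4. Tnfrsf17 and Tnfsf8, known from B and T cells, were not well above background in ko, and wt was at least 2.48-fold and at least 2.45-fold higher. Tnfrsf13c fell by 0.76 (SE 0.13, adjusted p = 0.0034), and the ligands Tnfsf9 and Tnfsf14 rose by 0.61 and 0.70. Alternatives put the number that rose at 7 with the replicate block; the number that fell was 1 with normexp and 3 with the filter over all 12 arrays. The Tnfsf8 call ended with normexp or slide 1 alone (adjusted p from 0.06 to 0.094). Tnfrsf17 and Tnfsf9 lost their calls with normexp background correction (adjusted p = 0.074 and 0.17).

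Secreted factors were led by a cytokine of type 2 immunity. The list had 35 tested members, of which 8 rose and 6 fell (40%; median difference 0.07). Il4 was −3.59, −3.91, −3.52 and −3.18 in wt and −0.78, −0.56, −0.78 and −0.75 in ko (2.83 ± 0.14, adjusted p = 4.8e-06), and Pdgfb, a growth factor also stored in platelets, was −3.02, −3.23, −3.86 and −3.19 in wt and −0.54, −0.37, −0.64 and −0.89 in ko (2.71 ± 0.29, adjusted p = 0.00038). Il6 was −2.06, −2.21, −2.01 and −1.48 in wt and −3.62, −4.04, −3.32 and −3.74 in ko (−1.74 ± 0.28, adjusted p = 0.0029), and Nrg4, an ErbB ligand, was −2.02, −1.87, −1.89 and −2.35 in wt and −3.75, −3.29, −3.34 and −4.51 in ko (−1.69 ± 0.27, adjusted p = 0.003). Il4 and Il6 are both made by basophils and mast cells and moved in opposite directions. Both belong to the basophil and mast cell markers, whose summed level was 39.7 to 46.2 in wt and 54.3 to 86.8 in ko. Of the 12 tested markers 3 rose and 6 fell, and their median difference was −0.58. The part of such cells in these values was not tested. Under other settings the higher count was 3 with normexp; the lower count was 3 without wt replicate 3 or ko replicate 1 or 4.

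Growth factor signals are carried inside the cell by Ras and by PI3K. Of 39 tested genes of Ras and MAPK signalling and its feedback, 5 rose and 5 fell (25.6%), with a median difference of −0.01. Rras2, a Ras-related GTPase, was −2.97, −2.99, −3.33 and −3.15 in wt and −4.22, −3.93, −4.52 and −5.11 in ko (−1.34 ± 0.19, adjusted p = 0.0014), and Rasa4, which switches Ras off, was 2.42, 2.46, 2.60 and 2.26 in wt and 1.82, 1.77, 0.31 and 0.63 in ko (−1.30 ± 0.26, adjusted p = 0.0071). Dusp10, a phosphatase of stress kinases, was −4.47, −5.08, −4.56 and −4.15 in wt and −4.29, −3.43, −1.92 and −1.72 in ko (1.73 ± 0.34, adjusted p = 0.0074), with the change mostly on slide 2. Across settings the number that rose was 2 with normexp; the number that fell was 3 with normexp or the filter over all 12 arrays and 3 without wt replicate 1 or 2 or ko replicate 1 or 2. Of 39 tested genes of PI3K, Akt and mTOR signalling, 6 rose and 1 fell (17.9%), with a median difference of 0.17. This median was 0.096 with normexp and 0.098 without wt replicate 4. Deptor, an inhibitor bound to mTOR, was −0.55, −0.66, −0.41 and −0.76 in wt and 0.67, 0.48, 0.37 and 0.43 in ko (1.08 ± 0.11, adjusted p = 0.00022), and Inpp4b, a lipid phosphatase, rose by 1.41 ± 0.28, adjusted p = 0.007. Pik3cb and Pik3cd, catalytic subunits of PI3K, rose by 0.74 and 0.47. Members that rose numbered 10 without wt replicate 4. The Dusp10 call ended with normexp or slide 1 alone (adjusted p from 0.17 to 0.4). The Inpp4b call ended with normexp background correction (adjusted p = 0.098).

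Ion channels were called in both directions. Of the 46 tested members, 11 rose and 12 fell (50%), with a median difference of −0.02. Kcnq5, a potassium channel, was at least 4.82-fold higher in wt, and Cacnb2, a calcium channel subunit, was −4.70, −4.19, −4.66 and −4.87 in wt and −7.03, −6.15, −7.93 and −7.38 in ko (−2.52 ± 0.39, adjusted p = 0.0023). Clic5, a chloride channel protein, was −2.83, −3.10, −3.04 and −2.76 in wt and −0.86, −1.26, −1.76 and −1.45 in ko (1.60 ± 0.23, adjusted p = 0.0015). Hvcn1, the proton channel that serves the oxidative burst, fell by 1.15 (SE 0.24, adjusted p = 0.0098). The higher count was 3 with normexp, 7 with no dim-probe filter and 5 to 6 without wt replicate 1 or 2 or ko replicate 1, 2 or 4; the lower count was 4 with normexp and 6 with the filter over all 12 arrays. The Cacnb2 call ended with normexp background correction (adjusted p = 0.067).

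Genes of the mitochondrial respiratory chain and the ATP synthase were lower by a small amount in ko. Among 49 tested members none rose and 27 fell (55.1%), and the median difference was −0.35. The median of the list was −0.20 with quantile normalization. All 49 differences were below 0, and their median was −0.37 on slide 1 and −0.32 on slide 2. Cox5a, a subunit of cytochrome oxidase, was 6.02, 6.08, 6.17 and 6.09 in wt and 5.29, 5.28, 5.55 and 5.14 in ko (−0.77 ± 0.13, adjusted p = 0.0029). Ndufb8, of complex I, was 4.63, 4.64, 4.89 and 4.81 in wt and 4.17, 4.16, 4.36 and 4.19 in ko (−0.52 ± 0.10, adjusted p = 0.0078), and Cycs, cytochrome c, was 4.66, 4.85, 4.84 and 4.54 in wt and 3.64, 3.74, 4.14 and 3.56 in ko (−0.96 ± 0.20, adjusted p = 0.0097). No array overlapped for these genes. On single arrays the median member lay at −0.41, −0.41, −0.17 and −0.38 relative to its wt mean in ko and between −0.07 and 0.08 in wt, so ko replicate 3 was nearest to wt. Alternatives put the lower count at 2 with normexp, 7 with the authors' values, 9 with array-median scaling, 12 with no dim-probe filter, 15 with quantile normalization and 8 to 16 without wt replicate 1, 2 or 3 or ko replicate 1, 2 or 4. No member passed as higher in any setting, and the differences of all 49 members stayed below 0 in every other setting tried except quantile normalization and slide 2 alone (47 of 49 in each). With normexp the median was −0.26, where the median of all genes was −0.15. The Ndufb8 call ended with normexp background correction (adjusted p = 0.076).

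**Figure D5:**
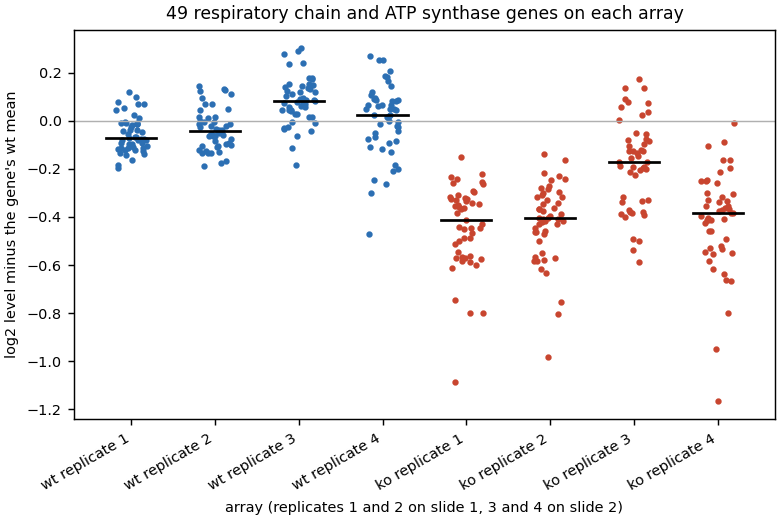
Level of 49 respiratory chain and ATP synthase genes on each of the 8 arrays (x axis), as log2 level minus the wild-type mean of the gene (y axis), blue for wild type and red for Runx1-deleted GMP; black bars are the medians of the 49 genes. Medians are between −0.07 and 0.08 on the wild-type arrays and at −0.41, −0.41, −0.17 and −0.38 on the Runx1-deleted arrays.

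Genes for the synthesis of serine, folate and nucleotides, which feeds dividing cells, were lower at several steps. Among 50 tested members 3 rose and 17 fell (40%), and the median difference was −0.34. Impdh1, of guanine nucleotide synthesis, was 2.71, 2.85, 3.26 and 2.69 in wt and 2.00, 2.01, 2.25 and 2.00 in ko (−0.81 ± 0.13, adjusted p = 0.0024), and Shmt1, a serine and folate enzyme, was −0.22, 0.15, 0.14 and −0.20 in wt and −0.59, −0.60, −0.83 and −1.005 in ko (−0.73 ± 0.15, adjusted p = 0.0079). Upp1, a uridine phosphorylase, was −4.57, −4.35, −4.52 and −3.96 in wt and −5.22, −5.54, −5.89 and −5.62 in ko (−1.22 ± 0.17, adjusted p = 0.0014). Samhd1, which destroys deoxynucleotides, rose by 0.38 ± 0.08, adjusted p = 0.0093. Under other settings the higher count was 1 with normexp and 1 without ko replicate 1 or 4; the lower count was 4 with the authors' values, 5 with normexp, 7 with array-median scaling and 7 to 10 without wt replicate 1 or 2 or ko replicate 1, 2 or 4. The Shmt1 call ended with slide 1 alone (adjusted p = 0.07). The Upp1 call ended with normexp background correction (adjusted p = 0.12).

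Genes of redox control went both ways. Among 51 tested members 5 rose and 10 fell (29.4%), and the median difference was −0.16. Alternatives put the median at −0.079 with quantile normalization, −0.25 without wt replicate 4 and −0.24 without ko replicate 3. Prdx4, a peroxiredoxin of the endoplasmic reticulum, was 1.59, 1.39, 1.21 and 1.24 in wt and 2.73, 2.63, 2.47 and 2.30 in ko (1.17 ± 0.13, adjusted p = 0.00035), and Txnip, an inhibitor of thioredoxin, rose by 1.06 ± 0.15, adjusted p = 0.0013. Gsta4, a glutathione transferase, was −4.22, −4.19, −3.90 and −3.82 in wt and −5.50, −5.40, −4.83 and −5.06 in ko (−1.16 ± 0.15, adjusted p = 0.00094), and Gstm2, another of these enzymes with close paralogs, rose by 1.21 ± 0.16, adjusted p = 0.0011. Across settings the number that rose was 3 with normexp or no slide term; the number that fell was 1 with normexp, 3 with the authors' values, 4 with array-median scaling, 16 with slide 1 alone and 4 to 6 without ko replicate 1 or 4. The Gsta4 call ended with normexp or the authors' values (adjusted p from 0.077 to 0.097). The Gstm2 call ended with normexp or no slide term (adjusted p from 0.06 to 0.1).

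Lipid genes were lower more often than higher. Among 61 tested members 6 rose and 14 fell (32.8%), and the median difference was −0.18. Other settings gave a median of −0.10 with quantile normalization, −0.21 on slide 1 and −0.046 on slide 2 and −0.12 without ko replicate 4. Fabp5, a fatty acid carrier, was 4.18, 4.38, 4.43 and 4.17 in wt and 3.05, 3.09, 3.12 and 2.86 in ko (−1.26 ± 0.16, adjusted p = 0.00095), and Acot1, which frees fatty acids from coenzyme A, was 0.94, 0.95, 1.11 and 0.83 in wt and 0.31, 0.24, −0.86 and −1.21 in ko (−1.34 ± 0.26, adjusted p = 0.0062). Bdh2, of ketone body and siderophore metabolism, was at least 13.6-fold higher in wt. Hacd4 and Elovl7, of fatty acid elongation, rose by 1.33 ± 0.17, adjusted p = 0.00097 and 1.01 ± 0.09, adjusted p = 0.00017. Higher members numbered 3 without ko replicate 4; lower members numbered 7 with normexp, array-median scaling or the authors' values, 8 with no dim-probe filter or no slide term and 5 to 9 without wt replicate 1, 2 or 3 or ko replicate 1, 2 or 4.

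Lysosomal genes, many of them proteases, were called lower more often than higher. Among 58 tested members 4 rose and 16 fell (34.5%), and the median difference was −0.09. On slide 1 alone the counts were closer, with 6 higher and 8 lower. Cd63, a membrane protein of lysosomes and granules, was 5.02, 4.86, 5.38 and 5.14 in wt and 3.57, 3.50, 4.22 and 3.94 in ko (−1.29 ± 0.10, adjusted p = 7.5e-05), and Ctsh, cathepsin H, was 2.63, 2.69, 2.29 and 1.07 in wt and 1.04, 1.39, 0.46 and −1.07 in ko (−1.71 ± 0.38, adjusted p = 0.012). Mcoln2, a lysosomal channel, fell by 1.29 (SE 0.21, adjusted p = 0.0031), and the cathepsins Ctsl and Ctss fell by 0.59 and 1.06. The higher count was 2 with normexp, the authors' values, no dim-probe filter or no slide term and 2 without wt replicate 1 or 2 or ko replicate 1 or 4; the lower count was 8 with slide 1 alone, 9 with normexp, 10 with array-median scaling, the authors' values or no dim-probe filter and 10 without ko replicate 4. Monocyte and dendritic cell markers, whose cells are rich in lysosomes, summed to 154 to 167 in wt and 109 to 131 in ko; their part in this count was not tested. The Ctss call ended with normexp, no slide term or slide 1 alone (adjusted p from 0.051 to 0.13). The Ctsh call ended with no slide term (adjusted p = 0.052).

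Enzymes that build glycans shape the ligands of adhesion receptors. Among 54 tested members 4 rose and 11 fell (27.8%), and the median difference was −0.12. The list median was −0.047 with quantile normalization, −0.059 with the filter over all 12 arrays, −0.032 on slide 1 and −0.13 on slide 2 and −0.075 without ko replicate 4. B3gnt5, which starts lacto-series glycolipids, was 0.21, 0.42, 0.11 and −0.15 in wt and −2.96, −3.02, −3.59 and −3.71 in ko (−3.47 ± 0.17, adjusted p = 5.3e-06). Galnt3, which starts O-linked chains, was −1.35, −1.17, −1.17 and −1.88 in wt and −4.21, −3.33, −3.99 and −5.22 in ko (−2.79 ± 0.43, adjusted p = 0.0021), and St6gal1, a sialyltransferase, was −3.34, −3.97, −4.23 and −3.75 in wt and −5.87, −5.71, −5.02 and −5.85 in ko (−1.79 ± 0.40, adjusted p = 0.012). Fut7, which completes selectin ligands, fell by 0.86 (SE 0.21, adjusted p = 0.016). On the other side Gcnt2, which branches poly-lactosamine, was 0.45, 0.32, 0.49 and 1.44 in wt and 2.37, 2.17, 2.00 and 2.75 in ko (1.65 ± 0.25, adjusted p = 0.0023), and St3gal1 rose by 1.29 ± 0.19, adjusted p = 0.0016. The lower count was 7 with normexp. The Fut7 call ended with normexp or quantile normalization (adjusted p from 0.056 to 0.068). The St6gal1 call ended with normexp background correction (adjusted p = 0.055).

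Tetraspanins and Ms4a proteins, which span the membrane several times, were split. Among 31 tested members 5 rose and 7 fell (38.7%), and the median difference was −0.07. Tspan18 was −5.47, −5.75, −4.34 and −4.67 in wt and −1.17, −0.75, −0.56 and −0.26 in ko (4.38 ± 0.38, adjusted p = 0.00013). Ms4a3, a marker of GMP and their progeny, was 4.99, 4.83, 5.33 and 4.36 in wt and 3.45, 3.56, 3.75 and 2.52 in ko (−1.56 ± 0.34, adjusted p = 0.011), and Ms4a1, the B cell antigen CD20, was at least 2.74-fold higher in wt. Cd81 rose by 0.54 ± 0.09, adjusted p = 0.0029. The B cell markers, of which Ms4a1 is one, summed to 12.1 to 15.3 in wt and 8.23 to 13.6 in ko, with overlap. Members that rose numbered 8 with slide 1 alone.

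The remaining lists hold surface receptors, calcium-binding proteins and genes that handle iron. Of 30 tested genes of paired immunoglobulin and Siglec receptors, 3 rose and 3 fell (20%), with a median difference of −0.06. Treml2 was 0.46, 0.44, 0.59 and 0.70 in wt and 1.58, 1.48, 1.52 and 1.72 in ko (1.02 ± 0.12, adjusted p = 0.00049), and Siglecf, a marker of eosinophils, was 1.43, 1.25, 1.88 and 1.84 in wt and 2.73, 2.42, 2.41 and 2.58 in ko (0.93 ± 0.18, adjusted p = 0.0071). Epx, the eosinophil peroxidase, was 0.46, 1.63, 1.80 and −0.98 in wt and −1.07, 0.26, 2.22 and −1.60 in ko (−0.78 ± 0.95, adjusted p = 0.59), and its groups overlapped. Across settings the number that rose was 5 with slide 1 alone; the number that fell was 1 with normexp, no dim-probe filter or no slide term and 0 to 1 without wt replicate 1, 2 or 3 or ko replicate 1, 2 or 4. Of 21 tested genes of S100 proteins and annexins, 1 rose and 5 fell (28.6%), with a median difference of −0.18. This median was −0.089 with quantile normalization, −0.23 on slide 1 and −0.056 on slide 2, −0.005 without wt replicate 1 and −0.001 without ko replicate 1. Anxa2, a membrane-binding annexin, was 4.00, 4.18, 4.27 and 3.97 in wt and 3.24, 3.44, 3.21 and 2.88 in ko (−0.91 ± 0.13, adjusted p = 0.0016). Alternatives put the lower count at 2 with no slide term and 3 without wt replicate 2 or ko replicate 4. Of 32 tested genes of iron and heme handling, 2 rose and 6 fell (25%), with a median difference of −0.16. The median of the list was −0.32 on slide 1 and 0.041 on slide 2, −0.27 without wt replicate 4, −0.096 without ko replicate 1 and −0.28 without ko replicate 3. Trf, transferrin, was 3.65, 3.63, 3.96 and 3.78 in wt and 3.34, 3.25, 2.32 and 2.52 in ko (−0.90 ± 0.20, adjusted p = 0.013), and Flvcr1, a heme exporter, fell by 0.61 (SE 0.13, adjusted p = 0.0099). The higher count was 0 with normexp, no dim-probe filter, no slide term, slide 1 alone or the median over probes, 1 with the replicate block or only the 8 arrays, 4 with quantile normalization and 0 to 1 without wt replicate 1, 2, 3 or 4 or ko replicate 1, 2, 3 or 4; the lower count was 2 with normexp, 3 with array-median scaling, the authors' values or no dim-probe filter and 2 to 3 without wt replicate 1, 2 or 3 or ko replicate 1, 2 or 4. The Trf call ended with normexp, the replicate block or slide 1 alone (adjusted p from 0.0503 to 0.063).

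Some changed genes were neighbours on a chromosome. Along the order of 14283 tested genes in RefSeq, 15 runs of at least 3 adjacent genes were at least 2-fold higher and 5 runs at least 2-fold lower. On chromosome 8 Col4a1, Col4a2 and Rab20, a small GTPase, rose by 1.46, 1.96 and 1.30, and these runs were picked after their values were seen. On chromosome 1 Tns1, Rufy4, Cxcr2 and Cxcr1 rose by 1.33, 2.15, 1.33 and 2.83; Cxcr2 is the chemokine receptor that draws neutrophils. On chromosome 9 Ttc12, Ncam1 and Plet1 fell by 1.75, 4.37 and 1.00. The chemokine receptor genes are close copies, so a probe of one may also read its neighbour. No chance level was computed for such runs. Col4a1, Rab20, Cxcr1 and Plet1 lost their calls with normexp background correction (adjusted p = 0.33, 0.5, 0.4 and 0.16).

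Probes of the same gene did not always move together. Of 4170 named genes with more than 1 tested probe, 720 had at least 2 called probes, and in 9 of these the probes were called in opposite directions; genes whose other probes were not called are outside this count. In H13, a signal peptide peptidase, the probe at 152512224 to 152512283 of chromosome 2 (mm9) rose by 1.65 ± 0.37 (limma adjusted p = 0.012), while those at 152517552, 152530679 and 152532349 fell by 0.60, 0.65 and 0.42. In Noct, a deadenylase-like protein that follows the clock, the probe at 51048571 of chromosome 3 rose by 0.66 ± 0.12 and the one at 51055429 fell by 1.13 ± 0.21. In Wdr31 the probe at 62110250 of chromosome 4 rose by 0.54 ± 0.11, and those at 62114769 and 62116919 fell by 1.03 ± 0.09 and 0.92 ± 0.16. The other genes of this kind were Anapc11, Arfrp1, Dohh, Rbx1, Tmem208 and Tmem80. They were found after their values were seen, and which transcripts the probes read was not examined.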

How the data were processed

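RNA of sorted GMP was labelled with Cy3 and hybridised to 1-colour Agilent mouse arrays, 1 sample an array. The deposited scanner files hold the processed spot intensity, extracted and background-corrected with Feature Extraction. The version was kept from the header of the last array only, RUNX1-ERt2 replicate 2. It was 10.7.3.1, for a design placed on mm9, and the submitters' processing notes name 9.1. The versions in the other headers were not compared. The authors' deposited value table, taken as a linear ratio of intensity to a scale near the array's own level, served as an alternative; its exact scaling is unknown here, and its wt and ko columns match another replicate of the same genotype. Control spots and 129 to 179 outlier spots an array were left out. Each log2 intensity was scaled by the 75th percentile of its array. A probe was tested where it was well above background on all arrays of at least 1 group, the transplanted groups included. A gene took its brightest probe by the mean of all 12 arrays. Of 39429 probes 28342 had a gene symbol, from RefSeq tables or the files. limma 3.58.1 (R 4.3.3) fitted all 12 arrays with a group mean and a slide term, two-sided, with Benjamini-Hochberg adjustment over 17905 genes and a threshold of 0.05; values after ± are its standard errors. The fit was tested on simulated data. The number of arrays limits the precision.

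Genes were named by rule: the 25 largest rises and falls, the 10 largest t in each direction, up to 4 members of each of 34 lists, 5 interaction genes, the Runx family and the markers of 10 cell types. The largest changes and t were taken among called genes whose wt and ko arrays did not overlap. They also had to be well above background on every array of the brighter group. Some other list members were named after their values were seen. Results for some genes and 1 list are not reported here. The members and lists were chosen with earlier results of these data known. Wild-type and ko arrays of the same number deviated together (correlations of their deviations from the group means of 0.373, 0.353, 0.175 and 0.673), and arrays of the same number share a slide; within slide 1 the correlation was −0.027 and within slide 2 0.429. Alternatives were normexp with an offset of 50, quantile normalization, the array median, the authors' value table, other filters on dim probes, no slide term, the replicate block, the 8 arrays or 1 slide alone, the median over probes, and leaving out each array. Folds written as "at least" concern genes with no well-measured array in the dimmer group: the mean of the brighter group was set over the higher of each dim array's lowest well-measured signal and the gene's own signal.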

Additional observations from a re-analysis of the deposited data

Results flagged for a closer look

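In 730 groups of 4 arrays (365 named genes, each in wt and ko), 35 had 1 array whose gap to the nearest of the others passed Dixon's 95% critical value, which is 4.8%; chance alone is expected to pick out about 1 in 20 groups. For ko replicate 1 the log2 levels that stood apart were those of Nrg3 at −2.63, Them7 at −7.27, Tnfrsf22 at −3.92 and Kdr at 1.55. The ko replicate 2 array stood apart for Gja1 at −8.36, Slc36a2 at −6.99, Il4 at −0.56, Kcnq5 at −6.30, Cma1 at −6.67, Cd3e at −1.59 and Col4a1 at −2.24. For ko replicate 3 the log2 levels that stood apart were those of Jam3 at 1.55, Pik3cb at −0.21, Esr1 at −4.68, Impdh1 at 2.25, Mcoln2 at −1.99 and Ndufb8 at 4.36. The ko replicate 4 array stood apart for Anxa3 at −0.66, Fcrla at −5.40, Blnk at −1.89, Hvcn1 at 0.16 and Rufy4 at 1.16. For wt replicate 1 the log2 levels that stood apart were those of Thbs2 at −8.13 and Rasd2 at −2.17. The wt replicate 2 array stood apart for Fzd6 at −3.45. For wt replicate 3 the log2 levels that stood apart were those of Lck at 0.19 and Il2rb at −6.32. The wt replicate 4 array stood apart for Chdh at −0.22, Tgfbr2 at 0.99, Gcnt2 at 1.44, Irf8 at 3.88, Ms4a6c at 1.11, Meis1 at 3.34, Plxnc1 at 1.25 and Sema4a at 0.83. The largest number fell on wt replicate 4 (8) and the smallest on wt replicate 2 (1). Levels near −8 are at the background of the arrays, so a gap there is between dim spots. No difference between the slides passed the adjusted interaction test for a named gene.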

How the results depend on the processing

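With normexp background correction 923 genes were higher and 1053 lower, against 2064 and 2471. There were 1395 lower genes with the array median as scale and 1328 with the values the authors deposited. On slide 2 alone 180 were higher and 199 lower, and on slide 1 alone, with as many arrays, 1877 and 2340. Leaving out 1 array gave 1387 to 2250 higher and 1447 to 2585 lower genes. The interaction between genotype and slide passed for 2 genes with quantile normalization and for 0 to 2 when 1 array was left out. The cause of these shifts was not tested. With the replicate block, which pairs wt and ko of the same number, 2107 genes were higher and 2637 lower; of 289 called genes named or examined, 275 kept their call, and those of Bglap3, Car1, Cd300lb, Cd34, H2-Aa, H2-Eb1, Igf2bp3, Mnt, Mpo, Mxd3, Pde4b, Rgs1, Smad1 and Trf ended. Of the same 289, 226 kept it with normexp, 280 with quantile normalization, 276 with the array median, 259 with slide 1 alone, 109 with slide 2 alone and 263 to 284 without 1 array. None of these changed sign. Signs turned for 4 differences that were not called in the report, and each turned value passed the threshold: Smim1, Aqp1 and Rhag were −0.82, −1.34 and −1.42 on slide 1 alone (limma adjusted p = 0.017, 0.0083 and 0.046), and Kdr, whose probes disagree, was 1.68 with the median over probes (adjusted p = 0.00035). Genes near −8 carry little signal above background.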

Other observations

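Transcription factors of the stem cell programme parted. Meis1, a homeobox cofactor of stem cells, was 2.90, 2.90, 2.83 and 3.34 in wt and 4.34, 4.10, 4.24 and 4.66 in ko (1.34 ± 0.20, adjusted p = 0.0019), with every ko array above every wt array. Its partner Hoxa9 was −1.74, −1.66, −2.24 and −1.85 in wt and −2.39, −2.16, −2.95 and −2.66 in ko (−0.67 ± 0.12, adjusted p = 0.004), in the other direction, with ko replicate 2 above the lowest wt array. Gfi1, a repressor that drives neutrophil fate, was 3.29, 3.41, 3.67 and 2.89 in wt and 2.65, 2.88, 2.67 and 1.69 in ko (−0.84 ± 0.29, adjusted p = 0.062), which missed the threshold although the groups did not overlap.

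Neighbouring interferon-induced genes of chromosome 5 were chosen after their values were seen. Oas2, which makes the signal molecule against viral RNA, was 0.78, 0.90, −0.57 and 0.62 in wt and 3.06, 3.49, 2.82 and 2.99 in ko (2.66 ± 0.24, adjusted p = 0.00014), and Oas3 was −2.11, −2.01, −3.51 and −2.92 in wt and −0.07, 0.26, −0.60 and −0.70 in ko (2.36 ± 0.15, adjusted p = 2.5e-05). These genes are close copies, so a probe of one may read another. Cd55, which protects cells from complement, was −0.68, −0.72, −1.12 and −0.19 in wt and 0.65, 0.48, 2.16 and 1.84 in ko (1.96 ± 0.33, adjusted p = 0.0034), while the complement component C4b rose as given above.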
